A study of Mus musculus with 24 samples.

Results

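The liver secretes proteins that act on other organs as hormones, and genes for 7 such hepatokines, Fgf21, Angptl8, Gdf15, Lect2, Selenop, Ahsg and Fetub, were followed through the circadian day in mice with and without a rhythm of the clock gene Bmal1. They were taken by gene name from the 54733 genes of the deposited tables, and each of the 7 names matched 1 gene in all 24 libraries. The libraries were made from poly(A)-tailed liver RNA of male mice on the C57BL/6 background, 12 from WT littermate controls and 12 from homozygous delta-RRE mutants (ΔRRE), in which CRISPR-Cas9 removed the pair of ROR response elements (RREs) in the Bmal1 5′-UTR region in every cell of the body. The mutants came from 1 of the study's mouse lines. All animals ate chow freely and were killed in constant darkness at circadian time (CT) 2, 6, 10, 14, 18 or 22, with 2 libraries per genotype and time point. Food intake of these animals was not analysed here. Nothing in the labels says whether the 2 libraries of a group came from separate litters or days, so the tests measure the spread between these libraries.

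Hepatokines differ in what calls them forth. FGF21 is a fasting and stress hormone that signals through an FGF receptor with the co-receptor beta-Klotho, and GDF15 is a stress hormone whose receptor, GFRAL, sits in the hindbrain. ANGPTL8 is made after feeding under insulin and, with related proteins of its family, shifts the activity of lipoprotein lipase and so the tissue that takes up triglyceride. LECT2 and the fetuins AHSG and FETUB are blood proteins tied to insulin signalling, and SELENOP carries selenium from liver to brain, testis and other tissues. Most clock-controlled liver genes follow E-boxes, D-boxes or RREs, while food intake drives a further set.

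Selenop stands out by its reading frame, in which the stop codon TGA is read as selenocysteine. In the GENCODE M21 annotation (GRCm38) the gene lies at chr15:3268547-3280508 on the plus strand, and its coding sequence held 10 in-frame TGA codons ahead of its stop codon, in 380 codons. The first was codon 59 and 9 followed codon 200, so the selenium is carried mostly in the tail of the protein. Shown with the TGA codons in capitals are the exonic bases around the first codon, which cross a splice junction, and those of the last 4 codons at chr15:3279654-3279704, both in exons of the coding sequence.
Selenop, first TGA codon: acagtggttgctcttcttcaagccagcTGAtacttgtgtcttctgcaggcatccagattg
Selenop, last 4 TGA codons: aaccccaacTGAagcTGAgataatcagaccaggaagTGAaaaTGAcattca

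Promoters of the members were searched for the motifs of the clock and of the amino acid response. RefSeq (GRCm38.p6) gave 11 promoters of 300 bases for the 7 genes, each from 250 bases before to 50 after a start site. The E-box CACGTG was found in 7.15% of the 32851 RefSeq mouse promoters, the D-boxes TTATGTAA or TTACGTAA in 1.06%, the RRE in 0.384%, the direct repeat 1 in 0.0396% and TGATGCAA, an amino acid response element bound by ATF4, in 0.895%, counted on both strands. TGATGCAA was in the promoters of Fgf21, 139 bases before the start on the opposite strand, and of Angptl8, 130 bases before the start. The E-box was in the Fgf21 promoter 50 bases before the start and in 1 of the 2 Gdf15 promoters 83 bases before the start. The other 8 member promoters held none of these motifs. The stretches with the matches of Fgf21 (chr7:45615515-45615649, minus strand) and Angptl8 (chr9:21835360-21835407, plus strand) are shown from 5′ to 3′ with the matches in capitals, TGATGCAA appearing as TTGCATCA in Fgf21.
Fgf21 promoter: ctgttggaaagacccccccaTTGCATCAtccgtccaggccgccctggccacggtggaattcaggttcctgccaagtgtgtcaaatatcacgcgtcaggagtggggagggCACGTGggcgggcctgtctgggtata
Angptl8 promoter: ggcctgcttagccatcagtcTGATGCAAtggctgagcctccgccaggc

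The values are FPKM, fragments scaled to transcript length and to the mapped fragments of the library, and they summed to between 554170 and 624746 per library. Reads per value are unknown, so no counting error can be given. Arntl, which encodes BMAL1, ran from 0.0919 to 13.2 FPKM in WT and from 2.096 to 4.213 FPKM in ΔRRE, and both WT libraries at CT2, CT18 and CT22 lay above all ΔRRE libraries. The hepatocyte markers summed to between 31118 and 49671 FPKM, against 0 to 1.88 FPKM for 5 lymphocyte markers and 12.1 to 61.9 FPKM for 5 Kupffer cell markers. In bulk tissue, fewer cells of a type and less RNA per cell cannot be told apart. A group of 3 ΔRRE libraries, both at CT10 and replicate 1 at CT14, had the highest sums of 10 acute-phase genes, 7609 to 12305 FPKM against 3142 to 6659 FPKM in the other 21, and the wave amplitudes and level differences of members that they move by over 1.5 times are given with and without them.

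The 7 genes spanned levels from the most abundant liver mRNAs to the edge of detection. Because FPKM are per length, levels can be set side by side between genes. Ahsg had a mean of 2086 FPKM over the 24 libraries and Selenop 2082 FPKM, rank 48 and 49 of all genes, and each was the higher of the pair in 12 of 24 libraries. Fetub followed with 281 FPKM and was below Selenop and above Lect2 in 24 of 24 libraries. Lect2, with a mean of 86.6 FPKM, was above Angptl8, with 81.5 FPKM, in 14 of 24 libraries, so their order was not fixed. Gdf15, at 3.36 FPKM, was below Angptl8 in all 24 and Fgf21, at 0.117 FPKM, below Gdf15 in all 24. Tests across genes took the 11244 genes whose mean over the libraries reached 1 FPKM, among them 6 of the 7 members but not Fgf21.

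**Figure D1:**
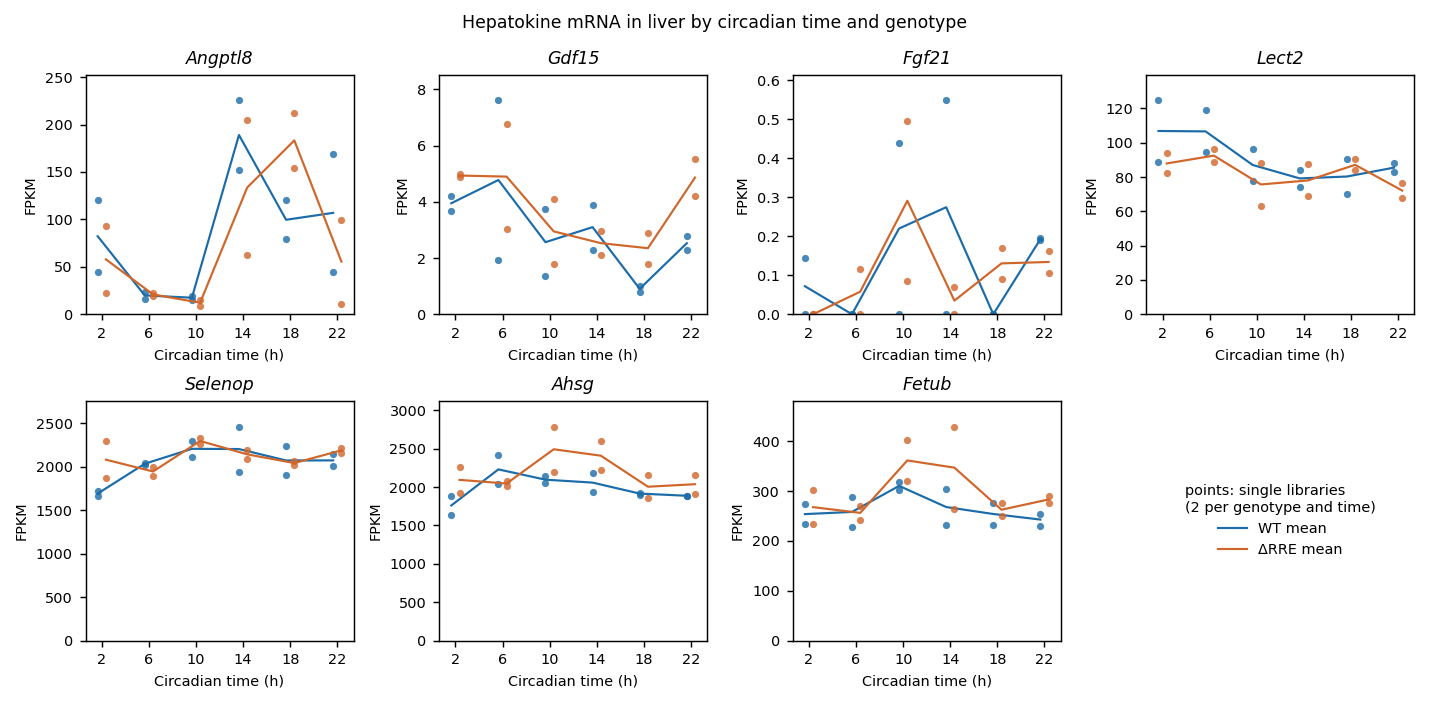
FPKM of the 7 hepatokine genes (y axes, linear from 0) against circadian time in hours for WT (blue) and ΔRRE (orange); points are single libraries, 2 per genotype and time point, and lines join their means. Angptl8 lay between 8.82 and 23.7 FPKM at CT6 and CT10 in both genotypes and reached 226 FPKM at CT14, while Selenop, Ahsg and Lect2 stayed within narrow bands.

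Angptl8, the feeding-responsive hepatokine, was the member that changed most with time of day. Its 2 WT libraries gave 44.1 and 120 FPKM at CT2, 16.03 and 23.66 at CT6, 15.5 and 19.3 at CT10, 152 and 226 at CT14, 120 and 78.8 at CT18, and 44.9 and 169 at CT22. In ΔRRE, the values were 22.8 and 92.9 FPKM at CT2, 22.4 and 19.3 at CT6, 15.4 and 8.82 at CT10, 62.7 and 205 at CT14, 213 and 154 at CT18, and 99.8 and 11.2 at CT22. All 8 libraries of CT6 and CT10 were below all 8 of CT14 and CT18, in both genotypes. The highest time-point mean was at CT14 in WT, 189 ± 51.9 FPKM (SD, n = 2), and at CT18 in ΔRRE, 183 ± 41.5 FPKM, and the lowest was at CT10 in both, 17.4 ± 2.69 and 12.1 ± 4.66 FPKM, a ratio of 10.8 in WT and 15.1 in ΔRRE.

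A wave of 24 h fitted to log2(FPKM + 0.1) gave Angptl8 an amplitude, measured from the wave's mean to its peak, of 1.41 ± 0.36 log2 units (SE) with a peak at CT18.8 ± 0.98 h in WT, and of 1.51 ± 0.48 with a peak at CT18.2 ± 1.21 h in ΔRRE. From peak to trough these waves span 7.08-fold and 8.08-fold. With both genotypes together the rhythm passed the test (limma, adjusted p = 0.031), and within WT (adjusted p = 0.057) and ΔRRE (adjusted p = 0.159) it did not. Fitted with free time-point means instead of the wave, the WT rhythm was called (adjusted p = 0.036). The joint call was lost without any 1 of 4 libraries, namely WT CT6 replicate 1, WT CT10 replicate 2 or either ΔRRE library at CT18 (adjusted p = 0.051 to 0.068), and it was lost when all genes above 0 FPKM were tested (adjusted p = 0.083).

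A single ΔRRE library, CT22 replicate 2, held Angptl8 at 11.2 FPKM where its partner held 99.8 FPKM. Without it the Angptl8 rhythm in ΔRRE passed the test, with an amplitude of 1.91 (adjusted p = 0.024), and the difference in mean level between genotypes went from -0.39 to -0.14 log2 units. Leaving out WT CT2 replicate 2 or WT CT22 replicate 1 likewise brought the WT rhythm past the test (adjusted p = 0.029 and 0.037). Angptl8 lies at chr9:21835510-21837347 on the plus strand inside Dock6, a minus-strand gene whose level ran from 1.82 to 12.6 FPKM. The libraries were directional, but whether the counting used strand is not given in the sources used here. Dock6 had its own rhythm with both genotypes together (adjusted p = 0.0085), of 0.81 log2 units in WT and 0.57 in ΔRRE, and its levels correlated with those of Angptl8 at r = 0.49 over the 24 libraries, but its deviations from the group means at r = -0.12.

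Gdf15, the stress hormone at chr8:70629393-70632456 (minus strand), had its lowest time-point mean at CT18 in both genotypes, 0.904 FPKM in WT and 2.35 FPKM in ΔRRE, while the lowest single ΔRRE library was CT10 replicate 2 at 1.78 FPKM. The WT libraries gave 3.68 and 4.21 FPKM at CT2, 7.61 and 1.94 at CT6, 3.75 and 1.38 at CT10, 3.90 and 2.30 at CT14, 1.02 and 0.792 at CT18, and 2.29 and 2.77 at CT22. The ΔRRE libraries gave 4.98 and 4.89 FPKM at CT2, 6.77 and 3.03 at CT6, 4.11 and 1.78 at CT10, 2.95 and 2.11 at CT14, 2.90 and 1.80 at CT18, and 4.20 and 5.53 at CT22. Both ΔRRE libraries were above both WT libraries at CT2, CT18 and CT22, and the genotypes overlapped at the other 3 time points. Over all genes tested, the ΔRRE pair lay above the WT pair in 18.6% at CT2, 24.5% at CT18 and 21.7% at CT22.

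The Gdf15 wave had an amplitude of 0.72 ± 0.28 log2 units with a peak at CT5.2 ± 1.46 h in WT and of 0.61 ± 0.17 with a peak at CT2.3 ± 1.07 h in ΔRRE, and neither passed the test, alone (limma, adjusted p = 0.211 and 0.114) or together (adjusted p = 0.079). The joint rhythm passed without WT CT6 replicate 2 (adjusted p = 0.027), without WT CT14 replicate 1 (0.028), without WT CT10 replicate 2 (0.040), and with the replicate number as a block (0.038). The mean level of Gdf15 was 0.45 ± 0.23 log2 units (SE) higher in ΔRRE, 1.37-fold with a 95% interval from 0.980 to 1.90, and this did not pass the test (adjusted p = 0.593).

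Fgf21, at chr7:45613886-45615490 (minus strand), was listed at 0 in 7 of 12 WT and 4 of 12 ΔRRE libraries. Both WT libraries were at 0 at CT6 and CT18, and 1 of the 2 was at 0 at CT2, CT10 and CT14, where the other held 0.144, 0.440 and 0.549 FPKM. At CT22 both WT libraries had signal, 0.190 and 0.195 FPKM. In ΔRRE both libraries were at 0 at CT2 and 1 of 2 at CT6 and CT14, with 0.116 and 0.0698 FPKM in the other, while CT10 gave 0.496 and 0.0861 FPKM, CT18 0.171 and 0.0901, and CT22 0.163 and 0.105. The highest value of any library was thus 0.549 FPKM, lower than the 0.792 FPKM minimum of Gdf15. The gene was not tested.

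Lect2, a blood protein made by hepatocytes (chr13:56542464-56548502, minus strand), ran from 69.9 to 125 FPKM in WT, with a median of 88.4 FPKM, and from 63.0 to 96.4 FPKM in ΔRRE, with a median of 85.6 FPKM. The 2 highest values were WT CT2 replicate 1 at 125 FPKM and WT CT6 replicate 1 at 119 FPKM. The groups did not overlap at CT22 only, where WT gave 87.9 and 83.1 FPKM and ΔRRE 67.8 and 76.4 FPKM. At that time 15.4% of all genes tested had both ΔRRE libraries below both WT libraries. The wave had an amplitude of 0.24 ± 0.08 log2 units with a peak at CT4.1 ± 1.22 h in WT and of 0.08 ± 0.08 in ΔRRE, and neither passed the test (limma, adjusted p = 0.124 and 0.798). The amplitude difference, ΔRRE minus WT, was -0.16 log2 units, with a 95% interval from -0.40 to 0.07. Without the 3 libraries highest in acute-phase genes, the Lect2 amplitude in ΔRRE was 0.17 ± 0.08 and the difference -0.068, with an interval from -0.32 to 0.18.

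Selenop had the lowest coefficient of variation of the members, 9.26% over the 24 libraries. It ran from 1660 to 2463 FPKM in WT (median 2035 FPKM) and from 1870 to 2327 FPKM in ΔRRE (median 2124 FPKM). The 2 WT libraries at CT2 were the lowest of all 24, at 1660 and 1722 FPKM, against 2293 and 1870 FPKM in ΔRRE at that time. At CT6 the order turned, with 2045 and 2025 FPKM in WT and 1993 and 1898 FPKM in ΔRRE. The wave amplitude was 0.14 ± 0.07 log2 units in WT and 0.04 ± 0.06 in ΔRRE, neither past the test (adjusted p = 0.318 and 0.886), and the difference of -0.10 had a 95% interval from -0.27 to 0.07. Without the 3 libraries highest in acute-phase genes, the Selenop amplitude in ΔRRE was 0.076 ± 0.072 and the difference -0.068, with an interval from -0.27 to 0.13. Selenop overlaps Ccdc152, a minus-strand gene at 1.46 to 4.15 FPKM.

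Ahsg and Fetub encode the fetuins, secreted proteins with cystatin domains. They are neighbours on chromosome 16, at chr16:22891277-22899449 and chr16:22918334-22939778, both on the plus strand, with 18884 bases and 0 annotated genes between them. Ahsg gave 1637 to 2420 FPKM in WT (median 1933 FPKM) and 1858 to 2790 FPKM in ΔRRE (median 2158 FPKM), and both ΔRRE libraries were above both WT libraries at CT2, CT10, CT14 and CT22. Fetub gave 228 to 319 FPKM in WT (median 264 FPKM) and 233 to 430 FPKM in ΔRRE (median 276 FPKM). Its genotypes did not overlap at CT10, with 319 and 302 FPKM in WT against 403 and 320 FPKM in ΔRRE. Nor did they at CT22, with 255 and 231 FPKM against 291 and 276 FPKM. Over all genes tested, the ΔRRE pair lay above the WT pair in 18.6% at CT2 and 17.4% at CT10. At CT14 the share was 17.4% and at CT22 21.7%.

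The 2 highest libraries of both fetuins were ΔRRE CT10 replicate 1 and ΔRRE CT14 replicate 1, with 2790 and 2602 FPKM of Ahsg and 403 and 430 FPKM of Fetub. These are among the 3 libraries highest in acute-phase genes. In ΔRRE CT14 replicate 1 Lcn2, an acute-phase gene, held 205 FPKM, against 2.86 FPKM in replicate 2. The mean level of Ahsg was 0.13 ± 0.06 log2 units (SE) higher in ΔRRE over all libraries and 0.08 ± 0.06 without the 3, and that of Fetub 0.15 ± 0.08 and 0.07 ± 0.07. None of these passed the test (limma, adjusted p = 0.569 and 0.915 for Ahsg, 0.62 and 0.94 for Fetub). Wave amplitudes in ΔRRE were 0.14 log2 units for Ahsg and 0.20 for Fetub with the 3 libraries, and 0.04 and 0.07 without them. The part of the acute-phase state in these differences was not tested.

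Across the 6 members tested, Angptl8 was the 1 gene with a rhythm called over both genotypes, 1 of 6 against 18.7% of all genes tested. Within WT, 0 of 6 were called against 10.3% of all genes, and within ΔRRE 0 of 6 against 4.57%. At an unadjusted p under 0.05, Angptl8 and Lect2 passed in WT, and Angptl8 and Gdf15 in ΔRRE, 2 of 6 each beside 27.6% and 22.6% of all genes. By the wider criteria of the study's methods, which ask for a harmonic p under 0.3 here, a ratio of highest to lowest time-point mean over 1.5 and a limited SD, 2 of 6 members, Angptl8 and Gdf15, were rhythmic in WT against 37% of genes, and the same 2 were rhythmic in ΔRRE against 35.4%. A share of 2 in 6 lies near these backgrounds.

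No difference between the genotypes was called in any member. For the rhythm, 0 of 6 members were called against 0.00889% of genes, which is 1 gene, Arntl. At an unadjusted p under 0.05 the test passed 319 genes, 2.84% of those tested, and 0 of 6 members. The Angptl8 amplitude differed by 0.10 ± 0.65 log2 units (SE), with a 95% interval from -1.24 to 1.43, so differences of more than 1 log2 unit either way were not resolved. That of Gdf15 differed by -0.11 ± 0.35, with an interval from -0.83 to 0.61, and by -0.0085 ± 0.40 without the 3 libraries highest in acute-phase genes. Those of Ahsg and Fetub differed by 0.02 and 0.06, with intervals from -0.16 to 0.20 and from -0.19 to 0.32, and by -0.088 and -0.065 without the 3 libraries.

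For the mean level, limma called 0 of 11244 genes, 0%, and 0 of 6 members. At an unadjusted p under 0.05 the level test passed 1002 genes, 8.91%, and 0 of 6 members. Of the members, 4 were higher and 2 lower in ΔRRE, with a median difference of 0.09 log2 units beside 0.04 over all genes tested. The difference for Angptl8 was -0.39 ± 0.35 log2 units (SE), 0.764-fold with a 95% interval from 0.460 to 1.27, and without the 3 libraries highest in acute-phase genes it was -0.20 ± 0.40. For Lect2 it was -0.14 ± 0.08, with an interval from -0.30 to 0.03. For Selenop it was 0.05 ± 0.06, 1.04-fold with an interval from 0.955 to 1.13, the narrowest of the 6.

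Counted by time point, both ΔRRE libraries were above both WT libraries in 12 of 36 combinations of tested member and time point against 19.3% over all genes, and below them in 3 of 36 against 11.9%. Ahsg gave 4 of the 12 and Gdf15 3. For 2 of the 6 members, Angptl8 and Selenop, the ΔRRE pair lay above the WT pair at one time point and below it at another, beside 33% of all genes. Combinations of 1 gene and of 1 library are not independent.

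**Figure D2:**
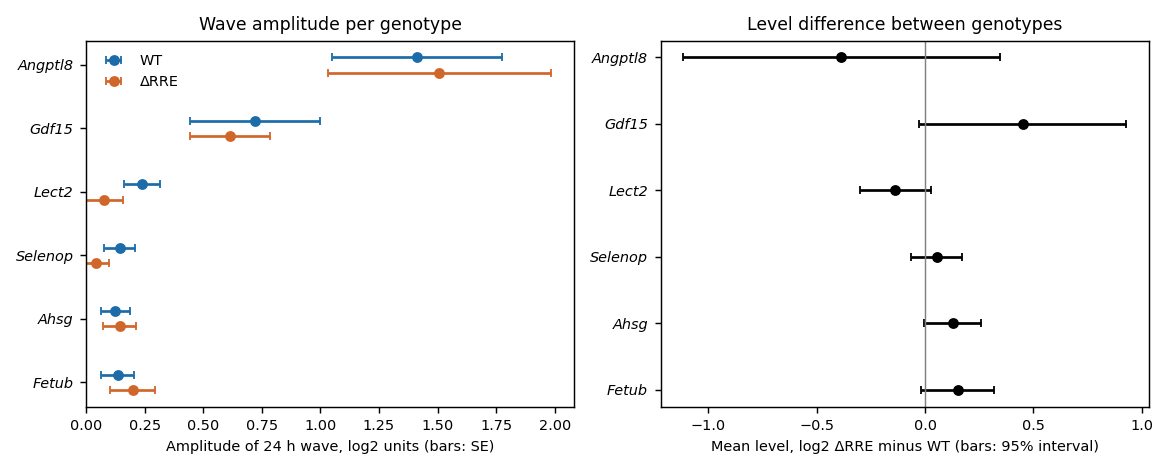
Left, amplitude of the 24 h wave in log2 units per member for WT (blue) and ΔRRE (orange), with SE from fits of 12 libraries each; right, mean level as log2 ΔRRE minus WT with 95% intervals from the fit of 24 libraries. Angptl8 had amplitudes of 1.41 and 1.51, and all 6 intervals of the level difference included 0.

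The spread between the 2 libraries of a group set what could be seen. Angptl8 had a replicate SD of 1.01 log2 units, larger than that of 98.2% of genes tested, and Gdf15 of 0.64, larger than that of 94.3%. The higher Angptl8 library held 1.16 to 8.92 times the lower, with the 2 highest ratios in ΔRRE at CT22 and CT2 (8.92 and 4.07). At CT6 and CT10, the trough, the Angptl8 ratios were at most 1.75, beside a median of 1.64 over all its groups. Selenop and Ahsg lay at the other end, with replicate SDs of 0.11 and 0.14 log2 units, and their highest ratios were both 1.27. Lect2 and Fetub, with 0.21 and 0.22, were near the median gene at 0.25.

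**Figure D3:**
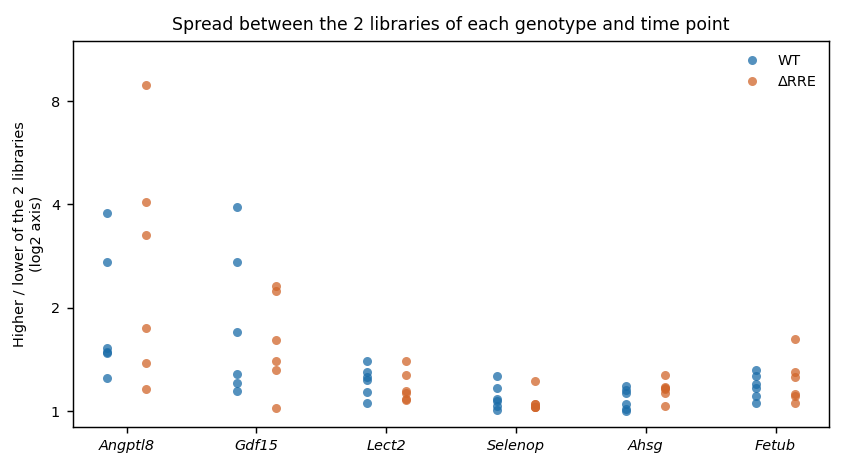
Higher divided by lower FPKM of the library pair of every group (y axis, log2 scale) for the 6 tested members, with WT in blue and ΔRRE in orange, 6 points each. Angptl8 reached 8.92 and Gdf15 3.93, while Selenop and Ahsg stayed at or below 1.27.

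Correlations between members of their log2 levels over the 24 libraries, given as a description of points that share time points and libraries, ran from r = -0.63 for Lect2 and Selenop to 0.64 for Ahsg and Fetub over 15 pairs. Lect2 and Selenop were opposed in both genotypes (r = -0.56 in WT, -0.72 in ΔRRE), and r was -0.45 without the 2 libraries farthest from the Lect2 median. Ahsg and Fetub correlated at 0.88 within ΔRRE and 0.06 within WT, and without the 3 libraries highest in acute-phase genes at 0.53 within the 9 others of ΔRRE and at 0.19 over 21 libraries. Selenop and Fetub differed in the same direction between the libraries of most groups. Their levels correlated at r = 0.63 and their deviations from the group mean at 0.67 (0.74 in WT, 0.68 in ΔRRE), where the 24 deviations amount to 12 differences.

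The genes whose levels were most like those of a member over the 24 libraries, among 11243 others, were ranked by r. For Angptl8 they were Id3, an inhibitor of basic helix-loop-helix factors (r = 0.91), Ppp1r3b, the glycogen-targeting subunit of protein phosphatase 1 in liver (0.88), and G0s2, an inhibitor of adipose triglyceride lipase (0.87). For Id3 and G0s2 the deviations within groups correlated with Angptl8 too, at 0.83 and 0.73. For Gdf15 the first 2 were Grb7 (0.83) and Arrdc4 (0.82). For Fetub they were Kng1, which encodes kininogen and shares the cystatin domain (0.89), Psmd9 (0.88) and Dnajc12 (0.85). For Ahsg, Aga, U2af1l4 and Prr3 gave 0.81 to 0.75, for Lect2, Psma1, Rgn and Tlcd2 gave 0.77 to 0.71, and for Selenop, Gemin2, Eif4enif1 and Susd1 gave 0.75 to 0.71. Within WT these r ran from 0.66 (U2af1l4 with Ahsg) to 0.94 (Ppp1r3b with Angptl8). Within ΔRRE they ran from 0.42 (Rgn with Lect2) to 0.95 (Arrdc4 with Gdf15). Without the 2 libraries farthest from the member's median they ran from 0.58 (Tlcd2 with Lect2) to 0.91 (Ppp1r3b with Angptl8). Highest values picked from so many genes are a ranking and not a test.

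**Figure D4:**
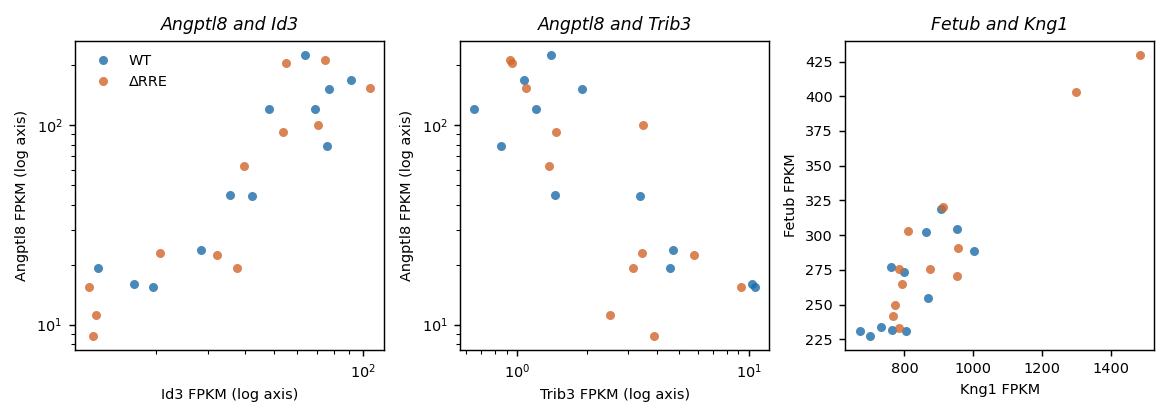
FPKM of Angptl8 against Id3 and Trib3 (log axes) and of Fetub against Kng1 (linear axes not starting at 0), 1 point per library, WT in blue and ΔRRE in orange. Angptl8 was high in libraries with high Id3 (r = 0.91 of log2 values) and low in those with high Trib3 (-0.80), and the 2 ΔRRE libraries at the top right of the Fetub panel are CT10 replicate 1 and CT14 replicate 1.

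Angptl8 was set beside genes that respond to feeding and fasting. Of 14 measured, 4 had a called rhythm over both genotypes, beside 18.7% of all genes, among them Pdk4, which restrains pyruvate oxidation (peak at CT23.4 in WT), Trib3, an ATF4 target (CT7.5), and Cpt1a, the gate of mitochondrial fatty acid oxidation (CT10.5). The Angptl8 levels correlated with those of the 14 genes at r = -0.80 to 0.86, with a median of -0.16. Trib3 gave the lowest r, -0.80 (-0.86 in WT, -0.78 in ΔRRE). Deviations within groups gave -0.33 with Trib3 (-0.72 in WT, -0.08 in ΔRRE) and -0.62 to 0.40 over the 14 genes. Scd1 and Pck1, the most abundant of the list at 1428 and 671 FPKM, were not called. In mean level, 9 of the 14 were higher and 5 lower in ΔRRE, and limma called 0. At an unadjusted p under 0.05, 5 were higher and 1 was lower, beside 7.16% and 1.75% of all genes.

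Among 13 other secreted liver factors measured, 3 had a called rhythm over both genotypes, beside 18.7% of all genes. These were Tsku, a secreted regulator of energy and lipid balance (amplitude 1.34 in WT and 1.49 in ΔRRE, peak at CT16.2 and CT16.3), Hamp, the iron hormone hepcidin, and Inhbe, an activin subunit. Inhbe deviated with Angptl8 between the 2 libraries of a group at r = 0.85 over the 24 deviations, which amount to 12 differences. That was the highest of the 13, which ran from -0.68 to 0.85 with a median of -0.08. The levels of Inhbe and Angptl8 correlated at 0.62. Angptl4, an inhibitor of lipoprotein lipase, was called within WT (amplitude 0.88, adjusted p = 0.013) and had an amplitude of 0.16 in ΔRRE (adjusted p = 0.960), and the test of the difference gave an adjusted p of 0.9999. Rbp4, the retinol carrier, had the highest mean, 2685 FPKM. None of the 13 was called for a level difference, and 6 were higher and 7 lower in ΔRRE. Of the 13, 2 were higher and 1 was lower at an unadjusted p under 0.05, beside 7.16% and 1.75% of all genes.

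Of 15 receptors and binding partners of the hepatokines, 10 reached a mean of 1 FPKM and 3 had a called joint rhythm beside 18.7% of all genes, namely Lipc, the hepatic lipase (72.1 FPKM), Fgfr2 (7.89 FPKM) and Klb, the beta-Klotho co-receptor of FGF21 (6.21 FPKM, amplitude 0.36 in both genotypes). Lipc was called in ΔRRE alone as well (amplitude 0.38, adjusted p = 0.0092). Gfral and Ret, the receptor and co-receptor of GDF15, were listed at 0 in all 24 libraries. Insr, the insulin receptor bound by AHSG, had a mean of 17.5 FPKM and was not called. In mean level, 8 of the 10 were higher in ΔRRE, with 0 calls and a median of 0.11 log2 units beside 0.04 over all genes tested. At an unadjusted p under 0.05, 3 were higher and 1 was lower, beside 7.16% and 1.75% of all genes.

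Of 18 transcription regulators known to act on these genes, 9 were called for a rhythm over both genotypes, beside the 18.7% of all genes. Among them were Nfil3, a repressor at D-boxes (peak at CT22.4 in WT and CT23.2 in ΔRRE), Cebpb (CT12.1 and CT12.8) and Mlxipl, the carbohydrate-sensing ChREBP (CT21.8 and CT23.2). Cebpa and Hnf4a, hepatocyte regulators, were the most abundant at 166 and 121 FPKM. No difference in rhythm or level was called in the 18.

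Genes of selenoprotein synthesis and selenium handling surround Selenop in function. Of 15 measured, 3 had a called joint rhythm beside 18.7% of all genes, which were Scly, which frees selenium from selenocysteine, Sephs2, which makes selenophosphate, and Txnrd2, a mitochondrial selenoenzyme, with WT amplitudes of 0.24, 0.18 and 0.33. The levels of Selenop correlated with those of Scly at r = -0.56, the lowest of the 15. Gpx1, the abundant selenoenzyme glutathione peroxidase, had a mean of 1275 FPKM and an amplitude of 0.11 in WT and 0.01 in ΔRRE.

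The type 3 cystatin family, with Ahsg, Fetub, Hrg, Kng1 and Kng2, had 0 of 5 genes called for a joint rhythm, beside 18.7% of all genes. For a level 0 of 5 were called, beside 0% of all genes. All 5 were higher in ΔRRE, with a median of 0.15 log2 units beside 0.04 over all genes tested. Of them 1 was under an unadjusted p of 0.05, beside 7.16% of all genes higher at that p. Kng1 had a mean of 875 FPKM and Hrg, a heparin-binding plasma protein, 468 FPKM. Fetub and Kng1 deviated together in both genotypes (r of deviations 0.94 in WT and 0.91 in ΔRRE), and their levels, at r = 0.92 within ΔRRE, correlated at 0.53 there without the 3 libraries highest in acute-phase genes. Levels of the 10 acute-phase genes correlated with Fetub at r = 0.37 to 0.75, and at 0.013 to 0.48 without the 2 libraries farthest from the Fetub median. Within WT these r ran from -0.04 to 0.59, and within ΔRRE from 0.48 to 0.78. With Ahsg they ran from 0.23 to 0.53, and from -0.33 to 0.19 without the 2 libraries farthest from its median. Within WT those with Ahsg ran from -0.48 to 0.55, and within ΔRRE from 0.33 to 0.59. All 10 acute-phase genes had higher means in ΔRRE, and limma called 0. Of them 5 were at an unadjusted p under 0.05, beside 7.16% of all genes higher at that p. Without the 3 libraries, which were chosen by these genes, 9 of 10 were higher, with 0 at an unadjusted p under 0.05, beside 4.73% of all genes. The acute-phase genes summed to 3142 to 6153 FPKM in WT and 3596 to 12305 FPKM in ΔRRE.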

How the data were processed

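Poly(A)-tailed RNA of 24 livers, 12 per genotype, was sequenced by the authors on directional libraries. The authors deposited FPKM per gene, 1 table per library, without pooling replicates. The submitters' processing notes name Trimmomatic 0.39, HISAT2 2.1.0, StringTie 1.3.5 and the build mm10. The annotation and the strand setting are not given in the sources used here. A table of the whole series was not used. Groups follow the genotype and time labels.

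From the deposited FPKM, log2(FPKM + 0.1) of genes whose mean reached 1 FPKM was fitted with limma 3.58.1 in R 4.3.3 (eBayes with trend), and p-values were Benjamini-Hochberg adjusted over all 11244 genes, with a limit of 0.05. Waves of 24 h (cosine and sine) were fitted for each genotype's 12 libraries (limma F-test of both terms) and for all 24 with genotype (F-test of the 4 wave terms, and of the 2 terms of their difference). The mean level was tested with time point as a factor. A fold change on this scale understates the change of low genes. BIO_CYCLE, named in the study's methods, was not run, and its P was replaced by the harmonic p. On simulated data with 11244 genes and 200 changed by 1 log2 unit, 92% of rhythms in WT, 84.5% in ΔRRE, 95.5% in both, 83% of rhythm differences and 94.5% of level differences were recovered. False calls in the same order numbered 25, 8, 19, 13 and 9, beside 184, 169, 191, 166 and 189 changed genes found. For rhythms in WT, rhythms in both and rhythm differences, false calls made up a larger share of the calls than the limit of 0.05. The shares recovered need not hold for Angptl8 and Gdf15, whose replicate SDs were larger than those of 98.2% and 94.3% of genes.

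The 7 members and the gene lists were chosen with earlier results of these data known. All members are described. From each list those named were at most 4 genes called in any test, by the joint rhythm p, and the 2 with the highest mean, and for each member the 3 genes with the highest r. Other genes (Gfral, Ret, Lcn2, Arntl, Dock6 and Ccdc152) were named after their values were seen. Some genes that this rule names are not reported here. Deviations are those of log2 values from the mean of the 2 libraries of a group. Of 54733 identifiers, 54528 were found in GENCODE M21, and all 7 member symbols matched. Python 3.11.15, NumPy 2.4.6, pandas 2.3.3 and matplotlib 3.10.9 were used. At most 0.0463% of values were identical between any pair of libraries.

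Alternatives were another constant (1 or 0.01 FPKM), no filter or a filter of 5 FPKM, rescaling by the median of ratios, a prior without trend, the replicate number as a block, time point as a factor, one fit with a shared spread, a ratio over 2 in the study's criteria, a wave per genotype in the level test, and leaving out each library. Leaving out the 3 libraries highest in acute-phase genes was chosen after seeing the data.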

Additional observations from a re-analysis of the deposited data

Results flagged for a closer look

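In 3 members the genotypes did not overlap in one direction at one time point and in the opposite direction at another, with 2 libraries per group. Among genes tested this held for 2 of 6 members, beside 33% of all genes, a share near that of the members, and the other member is Fgf21. The difference between the time points was not tested for itself, and the test of the rhythm difference called none of the tested members, with the wave or with time point as a factor. Fgf21 was higher in both ΔRRE libraries at CT18, by 0.13 FPKM in the mean, where both WT libraries were listed at 0, and the difference in mean FPKM at CT22 was -0.058. No fold is given for it. For Angptl8 the difference, ΔRRE minus WT, was 0.88 on the log2(mean FPKM + 0.1) scale at CT18 and -0.52 at CT10, its trough. For Selenop it was 0.30 at CT2, 0.078 at CT22 and -0.065 at CT6. Over all genes tested, both ΔRRE libraries were above both WT libraries in 19.3% and below in 11.9% of the combinations of gene and time point.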

How the results depend on the processing

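With 2 libraries per group, unknown read depth and no food intake, only large changes of Angptl8 and Gdf15 could be resolved, and Fgf21 lay near 0. No alternative called a member for a difference in rhythm or in mean level. For members, the count called for the joint rhythm went from 1 to 0 without a filter and to 2 with the replicate block, and lay between 0 and 2 on leaving out single libraries. In WT it was 1 with time point as a factor, and 0 to 1 without single libraries, as it was in ΔRRE. By the study's criteria it was 1 in each genotype with a filter of 5 FPKM, which leaves out Gdf15, and 2 to 3 without single libraries.

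Over all genes, rhythms called in WT went from 1157 to 519 with no filter and 361 with time point as a factor, and to between 740 and 1019 without single libraries. Those in ΔRRE went from 514 to 197 with no filter, 957 with a shared spread and 100 without the 3 libraries highest in acute-phase genes, and to between 298 and 554. Those over both went from 2107 to 1087 with time point as a factor, and to between 1753 and 2167. By the study's criteria, 4156 genes in WT became 9297 with no filter, 2005 at 5 FPKM and 1776 with a ratio over 2, and 3985 in ΔRRE became 8776, 1997 and 1794. Leaving out single libraries gave 4147 to 4460 in WT and 3902 to 4267 in ΔRRE. The 1 gene with a rhythm difference became 0 with 0.01 FPKM added, no filter, 5 FPKM, a prior without trend, the replicate block and without the 3 libraries, 4 with time point as a factor, and 0 to 1 without single libraries. The level test called 0 to 1 genes without single libraries. Fewer or more genes tested and fewer libraries are part of these settings, and otherwise the cause was not tested.

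The amplitude difference of Ahsg turned to -0.088 and that of Fetub to -0.065 without the 3 libraries highest in acute-phase genes. Without single libraries it lay between -0.11 and 0.50 for Angptl8, -0.34 and 0.079 for Gdf15, -0.028 and 0.049 for Ahsg, and -0.0056 and 0.13 for Fetub, none called. Rescaling moved the median level difference of all genes by -0.04 log2 units.

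Replicate numbers were not taken to pair the samples, since not every pair of groups passed 0.1. That rule would miss a weaker effect shared by libraries of the same number. The differences between replicates 1 and 2 correlated over genes at -0.14 to 0.30 between groups, with a median of 0.067, above 0 in 51 and over 0.1 in 20 of 66 pairs and, for the 2 genotypes at the same time, above 0 in 4 of 6. With the replicate block the joint rhythm of Gdf15 was called (limma, adjusted p = 0.038), and no other member call changed.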
